A study of Homo sapiens with 4 samples.

Results

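The genes described here are 10 targets of extracellular signal-regulated kinase (ERK) signalling: the phosphatases DUSP4, DUSP5 and DUSP6, the inhibitors SPRY1, SPRY2, SPRY4 and SPRED1, and the transcription factors ETV4, ETV5 and EGR1. They are 10 of the 27953 genes that the arrays represent, and all 10 were measured. In this and all other gene totals, probes without a matched gene symbol count as genes under their array identifiers. The cells were SAS, a human squamous carcinoma line of the tongue, carrying the lentiviral pLKO.1-LYRIC shRNA-B construct against LYRIC (also AEG-1, gene symbol MTDH) in the knockdown line, SB, or pLKO.1 vector in the control line, SCt. Both lines were selected as stable clones in puromycin at 2 μg/ml for 14 days and kept in it afterwards. The methods of the study describe the control vector as scrambled, whereas the labels name only pLKO.1. Each of 4 arrays set SB cDNA in the red dye against SCt cDNA in the green dye, from 15 μg of total RNA each, and 0 of the arrays had the dyes exchanged, so that a dye effect of a probe and a difference between the lines cannot be told apart. A single hairpin was used, so the knockdown and other effects of that hairpin cannot be told apart either. The labels call the arrays biological replicates, but no source used here says whether they came from separate cultures. The p-values measure the spread between these arrays, which may be technical. The test, limma, moderates each probe's spread toward a value common to all tested probes. Its p-values and intervals therefore do not follow from a gene's SD alone.

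ERK is the last kinase of the RAS, RAF and MEK cascade that growth factor receptors switch on. Active ERK turns on transcription within minutes, first of immediate early genes such as EGR1 and then of its own inhibitors. The DUSP phosphatases remove phosphate from ERK, and the Sprouty and SPRED proteins act further up, so the RNA of these genes is often read as a record of how much ERK signal a cell has received. Squamous carcinomas of the head and neck commonly depend on the EGF receptor, which feeds this cascade.

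The knockdown itself was seen on every array. The log2 ratio of SB to SCt for MTDH was −3.18, −3.01, −3.12 and −3.41 on arrays 1 to 4, and the SB and SCt levels did not overlap. Of the spots other than controls, 85.4% to 90.3% were well above background in SB and 84.7% to 90.0% in SCt, and 0 were saturated. All 10 squamous epithelial marker genes examined, the keratins KRT5 and KRT14 among them, were well above background in both lines on all 4 arrays. The ratios of different arrays correlated across the 28507 tested probes, which are not independent replicates, with Pearson's r from 0.05 for arrays 1 and 4 to 0.46 for arrays 1 and 3.

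After the dyes were balanced by loess, SB cells had less DUSP6 and EGR1 RNA than SCt cells on all 4 arrays. The other 8 genes did not pass the test. DUSP6, the cytoplasmic phosphatase specific for ERK, was 1.33-fold lower, and EGR1, a zinc finger immediate early factor, was 1.24-fold lower. Both calls are against a background in which 3.52% of the 23485 tested genes were called and 2.26% were called lower, 1.26% being called higher, by limma with Benjamini-Hochberg adjustment over all tested probes. Counted by probe, 3.70% were called, 1.32% higher and 2.38% lower. In RNA of whole cultures, fewer expressing cells and less RNA per cell cannot be told apart. Both differences depended on how the dyes were balanced, as given below. The largest ratio in the other direction was that of SPRY1, an inhibitor of receptor tyrosine kinase signalling, which did not pass.

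RefSeq windows covering the 250 bases before the transcription start (assembly GRCh38.p14) were given for 6 of the 10 genes, and the windows of the pair that passed the test are printed here. The window of EGR1, at chr5:138465229-138465478 on the plus strand, has its CArG boxes in capitals, the sites that serum response factor recognizes. None of the motifs searched was found in that of DUSP6, at chr12:89352502-89352751 on the minus strand, and it has no capitals.
EGR1: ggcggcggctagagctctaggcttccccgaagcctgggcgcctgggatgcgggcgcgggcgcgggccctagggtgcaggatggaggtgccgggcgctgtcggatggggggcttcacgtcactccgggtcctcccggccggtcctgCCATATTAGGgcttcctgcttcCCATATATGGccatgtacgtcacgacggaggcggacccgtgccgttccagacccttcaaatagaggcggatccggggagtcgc
DUSP6: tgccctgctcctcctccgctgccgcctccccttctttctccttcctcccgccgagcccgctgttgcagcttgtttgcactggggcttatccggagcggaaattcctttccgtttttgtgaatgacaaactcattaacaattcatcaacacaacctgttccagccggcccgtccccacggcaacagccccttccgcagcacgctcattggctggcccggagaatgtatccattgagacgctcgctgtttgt

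The EGR1 window held 2 CArG boxes, 105 to 96 and 83 to 74 bases upstream of the start, whereas 1.16% of all 35097 windows held any. It also held 1 match to the EGR motif GCGNGGGCG, 198 to 190 bases upstream, a motif present in 8.41% of windows. Both strands were searched, also for the ETS sequence CCGGAA, the AP-1 site TGANTCA, the cyclic AMP response element TGACGTCA and the kB motif. These were found in 14.5%, 6.57%, 1.65% and 5.20% of windows. ETV4, ETV5 and other ETS factors recognize sites of which CCGGAA is a form. It was found for SPRY1, 67 to 62 bases upstream, and for SPRY2, 142 to 137 bases upstream. Other forms of the ETS site were not searched, so windows without CCGGAA may hold them. The EGR motif was found for SPRY1, SPRY2 and SPRY4, and the SPRED1 window held none of the motifs. A match describes the letters of a window and is not evidence of binding.

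Among the phosphatases, DUSP6 stood lowest. Its normalized level, the log2 intensity after loess and quantile scaling of the mean of both channels, was 13.20, 14.98, 14.68 and 14.54 in SB cells on arrays 1 to 4, and 13.70, 15.35, 14.98 and 15.03 in SCt cells. SB was below SCt on each array, but the levels of the lines overlapped across arrays, also among arrays 2 to 4 alone. Array 1 was far below the other 3 in both lines. The log2 ratios were −0.51, −0.37, −0.30 and −0.49, with a mean of −0.42 ± 0.10 (SD, n = 4), a 95% interval of −0.54 to −0.29 and an adjusted p of 0.00292 by limma. The ratio was lower than those of all but 0.565% of the tested probes. The call was kept without any single array, with adjusted p from 0.000281 to 0.0282.

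DUSP4, a nuclear phosphatase of ERK and related kinases, had log2 ratios of −0.11, −0.20, −0.07 and −0.19. All 4 were below 0, which was true of 12.2% of genes, and the mean was −0.14 ± 0.06 (SD, n = 4) with an adjusted p of 0.193 by limma. DUSP5, a nuclear phosphatase specific for ERK, had ratios of −0.43, −0.07, −0.07 and 0.06. Its mean of −0.13 ± 0.21 (SD, n = 4) was smaller than its spread, and array 1 was the farthest from 0 (adjusted p = 0.396 by limma).

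**Figure D1:**
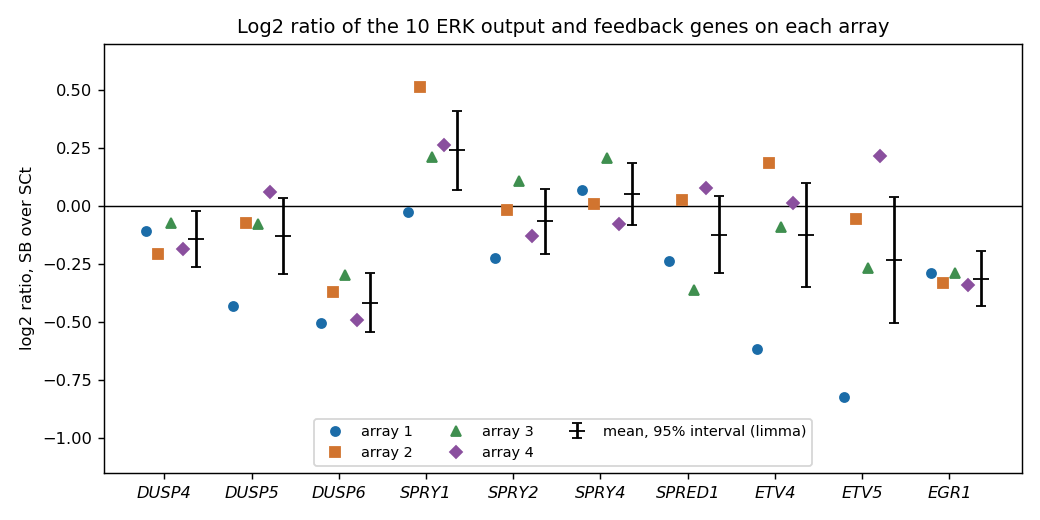
Log2 ratio of SB to SCt cells for each of the 10 genes (horizontal axis) on each of the 4 arrays (points), with the mean and its interval. DUSP6 (mean −0.42), EGR1 (mean −0.31) and DUSP4, which did not pass the test, have every point below 0, and ETV5 has the widest spread of points.

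Among the transcription factors, EGR1 had the tightest ratios of the 10 genes. Its normalized level was 13.82, 14.32, 14.36 and 13.82 in SB cells and 14.11, 14.65, 14.65 and 14.16 in SCt cells. SB was below SCt on each array by nearly the same amount, while both lines were higher on arrays 2 and 3 than on arrays 1 and 4, and the levels of the lines overlapped. The log2 ratios of −0.29, −0.33, −0.29 and −0.34 gave a mean of −0.31 ± 0.03 (SD, n = 4), a 95% interval of −0.43 to −0.19 and an adjusted p of 0.00852 by limma. The call was lost without array 2, at an adjusted p of 0.0607, and without array 3, at 0.0621, with the ratio itself little changed.

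ETV4 and ETV5, ETS factors of the PEA3 group whose RNA follows ERK activity in many epithelial cells, varied widely between arrays. For ETV5 the log2 ratios were −0.82, −0.05, −0.26 and 0.22, with a mean of −0.23 ± 0.44 (SD, n = 4), an interval of −0.50 to 0.04 and an adjusted p of 0.348 by limma. Without array 4, the only array on which it was above 0, its mean was −0.38, smaller than its SD of 0.40. It passed there, at an adjusted p of 0.00382 by limma, in a setting where 1991 probes passed against 1056 with all arrays. For ETV4 the ratios were −0.61, 0.19, −0.09 and 0.02, with a mean of −0.13 ± 0.35 (SD, n = 4) and an adjusted p of 0.564. Array 1 set the sign of that mean, which was 0.04 without it.

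The Sprouty and SPRED genes gave no call in either direction. SPRY1 had log2 ratios of −0.02, 0.51, 0.21 and 0.26, higher in SB on arrays 2, 3 and 4, with a mean of 0.24 ± 0.22 (SD, n = 4). Its interval was 0.07 to 0.41 and its adjusted p 0.115 by limma, and its levels overlapped, at 7.28, 8.96, 8.29 and 7.70 in SB and 7.30, 8.45, 8.08 and 7.44 in SCt. SPRY2, a close relative induced by growth factors, had ratios of −0.22, −0.02, 0.11 and −0.13 (adjusted p = 0.644 by limma). SPRED1, which brings neurofibromin to RAS at the membrane, had ratios of −0.24, 0.03, −0.36 and 0.08, with arrays on both sides of 0 (adjusted p = 0.420).

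SPRY4 was measured by a pair of probes. The brighter had log2 ratios of 0.07, 0.01, 0.21 and −0.07, with a mean of 0.05 ± 0.12 (SD, n = 4), and the other −0.16, 0.16, 0.02 and −0.11, with a mean of −0.02 ± 0.14 (SD, n = 4). The means differed in sign, and neither passed the test, at adjusted p of 0.697 and 0.888 by limma.

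**Figure D2:**
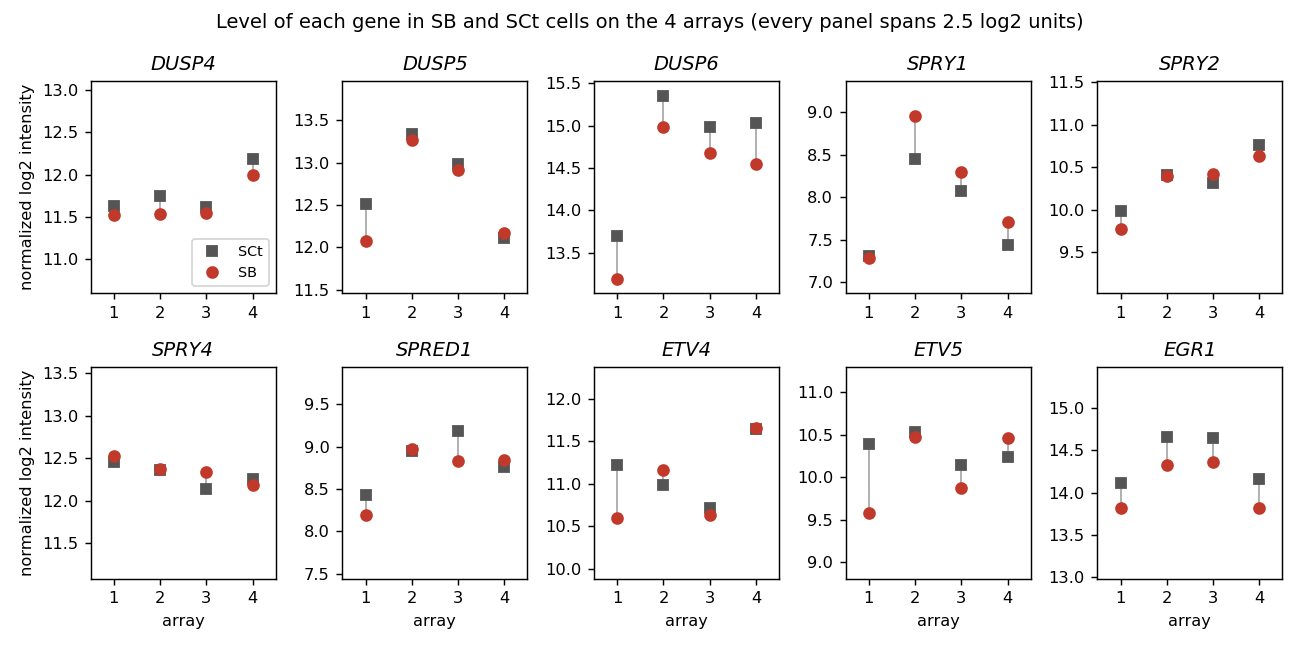
Normalized log2 intensity of each gene (vertical axis, 2.5 log2 units in every panel) in SB cells (circles) and SCt cells (squares) on arrays 1 to 4, with a line joining the values of an array. DUSP4, DUSP6 and EGR1 squares lie above the circles on every array, and for DUSP6 both are far lower on array 1.

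As a list, 8 of the 10 genes had a mean below 0 and 2, SPRY1 and SPRY4, above it. Over all 23485 tested genes, 10479 had a mean below 0. The median log2 ratio was −0.13, against 0.01 over all tested genes, whose 5th to 95th percentiles ran from −0.19 to 0.18. DUSP4, DUSP6 and EGR1 were below 0 on all 4 arrays and 0 genes were above 0 on all 4, the latter true of 14.6% of all genes. The levels of SB and SCt overlapped for all 10, and over all genes they were apart, with SB lower, for 1.13%, and with SB higher for 1.21%. Array 1 weighed most on the list: 9 genes were below 0 on it and 6, 7 and 5 on arrays 2 to 4, where 49.1%, 47.9%, 44.6% and 47.8% of all genes were below 0 on arrays 1 to 4. The counts on arrays 2 and 4 were thus near those of all genes. The median ratio without array 1 was −0.03, and it was −0.16, −0.14 and −0.18 without arrays 2, 3 and 4.

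The 2 calls rested on the balance of the dyes at bright spots. Before the loess curve was subtracted, with each array only centred on its median, the ratio of red to green rose with brightness over all probes, and the DUSP6 probe was brighter than 96.1% of probes and the EGR1 probe than 94.5%. With median centring alone the mean log2 ratio of DUSP6 was −0.13 (adjusted p = 0.153 by limma) and that of EGR1 −0.06 (adjusted p = 0.501), so neither passed. On arrays 1 to 4 these ratios were −0.23, −0.07, 0.05 and −0.28 for DUSP6. For EGR1 they were 0.02, −0.10, 0.03 and −0.17, so neither gene was below 0 on every array. The 525 probes of DUSP6's range of brightness had a median of 0.27 on that scale and a 5th percentile of 0.12, and the 803 of EGR1's range a median of 0.24 and a 5th percentile of 0.08. Both genes lay below the 5th percentile of probes as bright as themselves. Loess subtracts this rise with brightness, and both genes were called on their loess ratios. The comparison therefore restates those ratios and is not separate support for the calls. Median centring placed the median of all probes at 0.06, compared with 0.01 after loess.

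**Figure D3:**
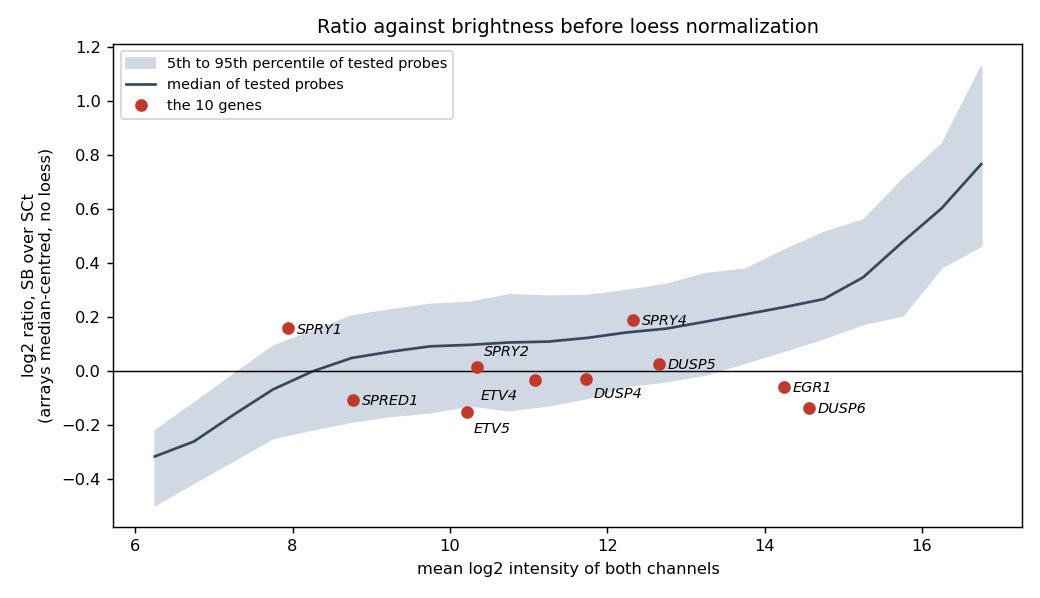
Median-centred log2 ratio of SB to SCt, before loess (vertical axis), against mean log2 intensity (horizontal axis), with the binned median and the 5th to 95th percentile band of all tested probes, and the 10 genes as points. The band rises with brightness, and DUSP6 (−0.13) and EGR1 (−0.06) lie under it, as does ETV5 (−0.15) by a small margin, while SPRY1 lies above it.

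The genes of the list varied more from array to array, in both lines together, than most genes. The mean level of both lines for DUSP6 was 13.45, 15.17, 14.83 and 14.79 on arrays 1 to 4, an SD of 0.759, larger than for 99.6% of genes. For SPRY1 it was 7.29, 8.70, 8.18 and 7.57, an SD of 0.633, and for DUSP5 12.30, 13.31, 12.94 and 12.14, an SD of 0.547. The median SD over all genes was 0.152. The probes of SPRY4 disagreed, the brighter at 0.124, below that median, and the other at 0.323, larger than for 91.5% of genes.

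In all, 6 of the 10 genes were in the top 10% of all genes by this SD at their brightest probe, above 0.307, namely DUSP5, DUSP6, ETV4, SPRED1, SPRY1 and SPRY2. Without array 1 it was 3 of 10, and 7 of the 10 genes had their lowest mean level on array 1, as did 22.1% of all genes. Of 26 other ERK output genes, 13 were in that top group, FOS, FOSL1, MYC and HBEGF among them, as were 6 of 13 relatives of the 10 genes, EGR3 and DUSP1 among them, 6 of 10 squamous markers and 1 of 25 genes of the cascade itself, NF1. This measure was chosen after the values were seen, and it carries no test. Cells of a culture and the hybridization of an array cannot be told apart in it, since SB and SCt shared each array.

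Other genes of the pathway were described from 3 further lists. Of 13 measured relatives of the 10 genes, 1 passed the test, where 3.52% of all 23485 tested genes passed. It was EGR3, an immediate early factor related to EGR1, at log2 ratios of −0.77, −0.78, −0.35 and −0.20. Its mean was −0.52 ± 0.30 (SD, n = 4), 1.44-fold lower, with an adjusted p of 0.00974 by limma, lost without array 3 at 0.0889. The median of the relatives was 0.05, and the highest was DUSP9, a phosphatase of ERK, at 0.17 (adjusted p = 0.162). EGR2 and the phosphatase DUSP1 were among the 12 relatives that did not pass.

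Of 26 other output genes, 2 passed, both lower in SB cells, where 3.52% of all 23485 tested genes passed. The mean was below 0 for 19 of the 26, with a median of −0.03, and for 10479 of the 23485. With median centring 6 of the 26 passed, 5 higher and 1 lower. On that scale 8939 of the 28507 tested probes passed, 5599 higher and 3340 lower. PHLDA1, a pleckstrin homology-like protein induced by ERK, had log2 ratios of −0.45, −0.55, −0.61 and −0.45, a mean of −0.51 ± 0.08 (SD, n = 4), 1.43-fold lower, at an adjusted p of 0.000557 by limma. IER2, an immediate early gene, had ratios of −0.41, −0.36, −0.29 and −0.16, a mean of −0.30 ± 0.11 (SD, n = 4), 1.23-fold lower, at an adjusted p of 0.0177. The call for PHLDA1 was kept with median centring, where its ratio was −0.41, and that for IER2 was not, at −0.09 and an adjusted p of 0.254, nor without array 1, 2 or 3, at adjusted p of 0.0782, 0.105 and 0.117. The highest was FOSB, of the AP-1 family, at 0.15 (adjusted p = 0.344).

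Of 25 genes of the cascade, from receptor adaptors to ERK and the RPS6KA kinases after it, 0 passed by limma at the brightest probe. The unadjusted limma p was under 0.05 for 3 of the 25, and for 4264 of all 23485 tested genes. A dimmer probe of RPS6KA3, a kinase activated by ERK, did pass, at a mean log2 ratio of −0.44 and an adjusted p of 0.00693 by limma. The brighter probe of that gene did not, at −0.06 and an adjusted p of 0.633. RPS6KA3 is named after its values were seen. The lowest gene at its brightest probe was MAP2K1, which encodes MEK1, with log2 ratios of −0.30, −0.32, −0.51 and −0.02. Its mean was −0.29 ± 0.20 (SD, n = 4), with an adjusted p of 0.0561 by limma. Array 4 stood nearest to 0, and without it the mean was −0.38, at an adjusted p of 0.000449. The highest was the adaptor GAB1, at 0.11 (adjusted p = 0.450). The median of the cascade was −0.00642, with 11 genes above 0 and 14 below.

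**Figure D4:**
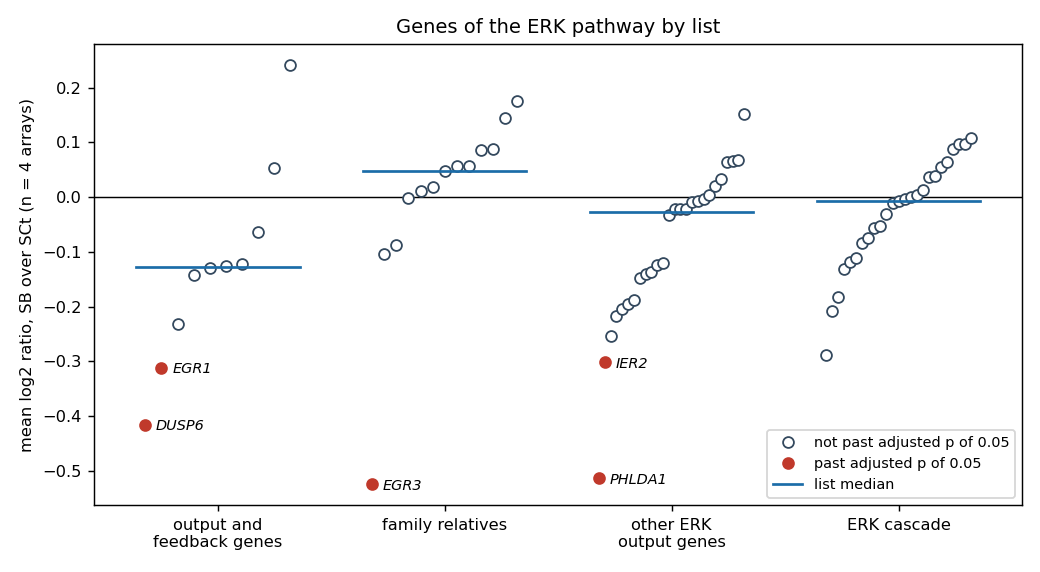
Mean log2 ratio of SB to SCt cells for each gene of 4 ERK lists (points), with filled points for those past an adjusted p of 0.05 and a line at the median of each list. The medians lie between −0.13 for the 10 genes and 0.05 for their relatives, and 5 genes are filled, all below 0.

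Genes that mark other cells gave no call, but many of their probes gave signal. Of the fibroblast markers 3 of 6 were well above background in both lines on all 4 arrays, COL1A1, COL1A2 and DCN, as were 5 of 6 leukocyte markers and 4 of 5 endothelial markers. The log2 ratios of these lists had medians of 0.03, 0.06 and 0.01. COL1A1, a chain of type I collagen, had a mean normalized level of 12.62 in SB and 12.57 in SCt cells, whereas COL3A1 and LUM were not well above background in either line on any array. The part of such signal in the results was not tested.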

How the data were processed

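Per the labels, the authors hybridized SB and SCt cDNA together on 4 Agilent human arrays, and the submitters' processing notes name Agilent Feature Extraction 10.5.1.1. The deposited scanner files hold spot intensity per channel and the software's log10 ratio of red to green. The deposited series table holds log2 values, which equalled the log2 ratio of the software's processed signals within 0.001 for 97.6% to 97.9% of probes. Median intensities were corrected with normexp (offset 50), control spots (1377) and outlier spots (814 to 1168 per array) were left out, and loess was applied within arrays in limma 3.58.1 (R 4.3.3). Spots of a probe were averaged. A probe was tested if 1 of its channels, the same on each of the 4 arrays, was flagged well above background and it had values on at least 2 arrays. Ratios were tested against 0 with lmFit and eBayes, with Benjamini-Hochberg adjustment over 28507 of 34127 probes and a threshold of 0.05. Of the probes, 24826 were named through RefSeq (GRCh38.p14) and 9301 were not, and a gene was represented by its brightest probe. The script was tested on simulated data.

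The members and the lists were chosen with earlier results of these data known. The text names all 10 genes, MTDH and, from each of the 3 further lists, the genes past the threshold and the highest and lowest. Other genes of those lists, such as EGR2, DUSP1, FOS, FOSL1, MYC, HBEGF, NF1 and RPS6KA3, are named outside this rule. An exact sign-flip test of 4 arrays cannot go below 0.125, so none is given. Array number limits the precision. Alternatives covered background, normalization, probe choice, filters, the variance model, the methods' t-test and leaving out each array.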

Additional observations from a re-analysis of the deposited data

How the results depend on the processing

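Over 17 alternatives for each of the 10 genes, 160 of 170 values kept both direction and side of the threshold. That count says little, since most of these genes had no call to lose. Also, the changed filters and the quantile scaling left every ratio of these genes as it was. The call for DUSP6 was lost in 2 of the 17 alternatives and that for EGR1 in 4 of the 17. With median centring in place of loess, 8939 probes passed (5599 higher, 3340 lower) against 1056 (377 higher, 679 lower), along with 0 of the 10 genes, 6 other output genes (5 higher, 1 lower, against 0 and 2), 4 cascade genes (3 higher, 1 lower, against 0 and 0) and 6 relatives (4 higher, 2 lower, against 0 and 1). DUSP5 then turned to 0.0278, SPRY2 to 0.0145 and GAB1 to −0.0334. ETV4 ranged from −0.229 to 0.0381 over the omitted arrays, above 0 without array 1. The methods' t-test, adjusted, gave 0 probes (3936 at an unadjusted p under 0.05), 0 of the 10 genes (3 unadjusted), 0 other output genes, 0 relatives, and an adjusted p of 0.144 for MTDH at −3.18. The series table gave 698 probes (224 higher, 474 lower), and it and the software's ratios each gave 1 other output gene. The cascade gave 1 gene with a trended robust variance, with probes averaged and with any probe. Leaving out 1 array gave 204 (without array 3), 431 (array 2), 639 (array 1) or 1991 probes (array 4), 1 to 3 of the 10 genes, 1 to 6 other output genes, 0 to 1 cascade genes, 0 to 1 relatives, MTDH from −3.24 to −3.10, and 3 (without array 1) to 7 (without array 4) genes in the top 10% by SD between arrays. The cause was not tested for any of these. The SD measure and the alternatives for genes of the further lists were added after seeing the data. Each log2 ratio sets SB against SCt of the same array, so the test of the ratios against 0 is already a paired analysis. The precision is set by 4 arrays of 1 dye orientation, between which the median SD of a gene's ratio was 0.112.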
